A study of Homo sapiens and Mus musculus with 16 samples.

Results

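The BCL2 family comprises the proteins that decide whether the mitochondrial outer membrane of a stressed cell is kept intact. Of the 22314 genes in the mRNA table, 10 members chosen by name are described here, namely the effectors BAX and BAK1, the guardians BCL2, BCL2L1 and MCL1, and the BH3-only members BID, BAD, BBC3, PMAIP1 and BCL2L11. Poly(A) RNA of SK-HEP-1, an established human line labelled as liver cancer, was sequenced on a SOLiD 3 instrument. Cells had received the solvent DMSO alone for 2 h (2U) or 4 h (4U), or 0.5 mg/ml of an ethanol extract of Antrodia cinnamomea fruiting bodies (AcFBE), a medicinal fungus of Taiwan, for 2 h (2T) or 4 h (4T). Each condition had 1 library, so the differences have no replicate check, and no test or error between replicates is given. The comparison asks how the early transcriptome of the cancer cells differed under the extract, and here how the 3 functional groups of the family differed.

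Effectors assemble into pores in the outer mitochondrial membrane, through which cytochrome c leaves to activate caspases. Guardians hold effectors and BH3-only proteins in check by binding their BH3 helix in a surface groove. BH3-only proteins are the sensors of stress: they occupy the groove of guardians, and some engage effectors directly, so that the balance between the groups sets how readily a cell enters apoptosis. Much of this regulation acts on the proteins, by cleavage of BID, phosphorylation of BAD and rapid degradation of MCL1, which mRNA levels do not show.

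The BH3 core is the short stretch that the groups share. The coding sequence around it is shown for the 6 members that reached 1 FPKM (fragments scaled to transcript length and library size) in at least 1 library, each read 5′ to 3′ on its coding strand from GENCODE transcripts on GRCh37. The capitals mark the codon of the core leucine and the last 2 codons of the 6-residue core, with 4 codons on either side of the core.
BAX: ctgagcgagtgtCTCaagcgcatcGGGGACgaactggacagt
BAK1: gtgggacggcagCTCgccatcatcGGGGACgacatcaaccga
BCL2L1: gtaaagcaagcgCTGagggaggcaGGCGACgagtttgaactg
MCL1: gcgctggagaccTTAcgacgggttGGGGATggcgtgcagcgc
BID: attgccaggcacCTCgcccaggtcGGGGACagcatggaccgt
BAD: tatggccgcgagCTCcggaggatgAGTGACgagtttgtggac

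These 42-base stretches lie in exon 3 of BAX (chr19:49459032-49459073, plus strand), exon 4 of BAK1 (chr6:33543164-33543205, minus strand), exon 2 of BCL2L1 (chr20:30309725-30309766, minus strand), exon 1 of MCL1 (chr1:150551341-150551382, minus strand), exon 4 of BID (chr22:18222181-18222222, minus strand) and exon 3 of BAD (chr11:64039094-64039135, minus strand), all within the coding sequence. The pattern searched was leucine, then arginine, lysine or alanine, then any pair of residues, then glycine, alanine or serine, then aspartate. It occurred once in each of the 10 members and in 1813 of 19869 human coding sequences (9.12%), so a match alone does not mark a family member. The residue before the aspartate was glycine in 8 members, alanine in BBC3 and serine in BAD. Among the 6 stretches shown, the BAK1 and BID stretches were the most alike, with 15 of 42 bases differing, and MCL1 and BAD the least alike, with 29 differing.

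The table held FPKM as the authors deposited them, which are scaled to transcript length. The levels were not corrected here for GC content or for PCR amplification, which may act differently on different transcripts. Orders, sums and ratios between genes therefore only describe the listed values. The number of genes above 0 was 10691 (2U), 8454 (2T), 9550 (4U) and 9773 (4T). The gene numbers printed by the study are the same for the 4 h libraries but differ for both 2 h libraries. There the study lists more genes in 2T than in 2U, the reverse of the order here. The 2 h columns may thus not be the values that the study analysed, and the reason was not tested. Every ratio that uses 2U or 2T carries this limit. The 4 h libraries held no value between 0 and 0.2 FPKM, whereas 2U held 2656 and 2T held 1173, so low values were handled differently at the 2 times. In 2T, 32 genes were listed at 0 that had at least 10 FPKM in each of the other 3 libraries (VDAC2 was one), and no other library had such a gene. A value of 0 is therefore given only as listed. Of 11 hepatocyte markers, 9 (ALB and HNF4A among them) were listed at 0 in all 4 libraries, with a summed level of 9.22 to 18.9 FPKM that came mostly from SERPINA1. Of 6 endothelial markers, 5 were at 0 and ENG was at 8.65 to 24.8 FPKM, and all 4 blood markers were at 0. Of 5 mesenchymal markers, VIM (6465 to 13625 FPKM), FN1 (4.92 to 14.5) and THY1 (25.5 to 55.6) were above 1 FPKM in all 4 libraries. COL1A2 was at 0 throughout, and COL1A1 was above 0 only in 4T (0.271 FPKM). Most defining markers of hepatocytes were thus listed at 0 in this line labelled as liver.

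Of the 10 members, 9 were above 0 in each untreated library, 6 in 2T and 8 in 4T, and 5 or 6 reached 1 FPKM in each library. BID was the most abundant member in 2U, followed by BCL2L1 and BAD. In the other 3 libraries the order began with BAD, then BID, then BCL2L1. No spread between replicates was measured, so it cannot be said which neighbours in these orders differ. Beyond each treated-to-untreated ratio, the ratio of the untreated libraries, 4U over 2U, gives the only measure of how far untreated libraries lay apart.

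**Figure D1:**
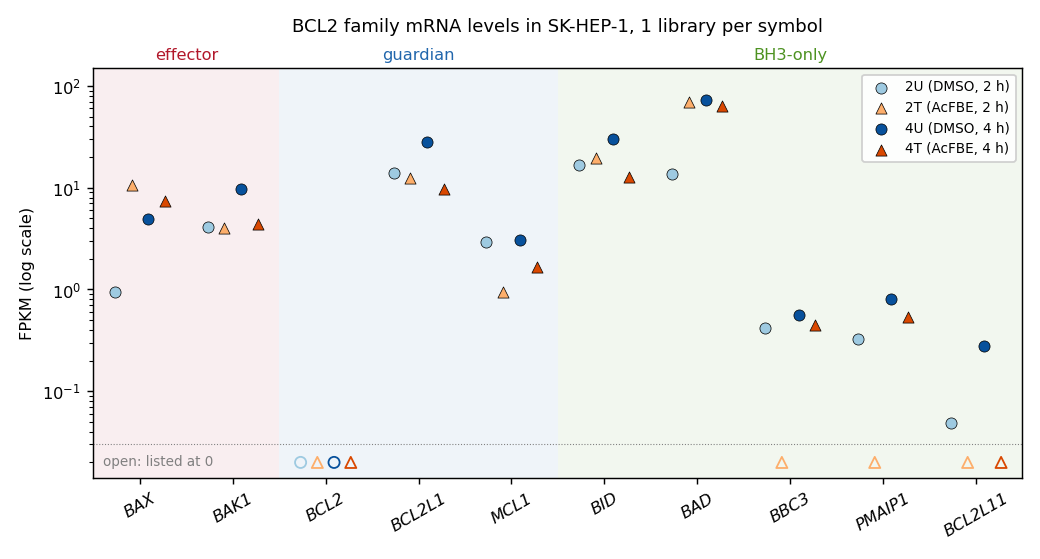
FPKM (log axis) of each of the 10 members in the 4 libraries, 1 symbol per library, circles for DMSO and triangles for AcFBE, with open symbols for genes listed at 0. BAX and BAD in 2U lie far below their other 3 libraries, while BCL2 is at 0 throughout.

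The effectors differed from each other. BAX, located at chr19:49458072-49465055 (plus strand), was at 0.937 FPKM (2U), 10.7 (2T), 4.90 (4U) and 7.38 (4T). Both treated libraries lay above both untreated ones, and 2U stood lowest. The share of all genes with such a separation was not counted, so here and below it only describes the values. BAX was 11.4-fold higher in 2T than in 2U (log2 ratio 3.51) and 1.51-fold higher in 4T than in 4U (log2 ratio 0.59), while 4U itself was 5.22-fold above 2U. With the mean of 2U and 4U as the untreated level, the 2 h log2 ratio of BAX was 1.87, and with a pseudocount of 1 FPKM it was 2.59. From the spacing of low FPKM values, the 2U level of BAX corresponds to about 3 reads and the 2T level to about 41. The ratio from these estimated reads was 12.8, with an exact 95% interval of 4.10 to 64.9. That interval covers counting error only and takes each read as independent, which PCR copies are not. The 4U and 4T levels correspond to about 21 and 32 reads, estimated from a less distinct spacing.

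BAK1, the effector held on the mitochondrial membrane, is located at chr6:33540324-33548070 (minus strand). Its level was 4.08 FPKM (2U), 4.01 (2T), 9.70 (4U) and 4.45 (4T). Here 4U stood apart and the other 3 libraries were close together. BAK1 was near equal at 2 h (log2 ratio -0.03) and 2.18-fold lower in 4T than in 4U (log2 ratio -1.13), and 4U was higher than 2U by a log2 ratio of 1.25. The ratio of BAX to BAK1 was 0.230 (2U), 2.66 (2T), 0.505 (4U) and 1.66 (4T), so BAK1 was the main effector mRNA in both untreated libraries and BAX in both treated ones. BAX accounted for 18.7%, 72.7%, 33.5% and 62.4% of effector FPKM in the same order.

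Among the guardians, BCL2 (chr18:60790579-60987361, minus strand), the founding member of the family, was listed at 0 in all 4 libraries. BCL2L1, whose main product is BCL-xL, lies at chr20:30252255-30311792 (minus strand) and carried 82.5 to 93.0% of guardian FPKM. Its level was 13.9 FPKM (2U), 12.5 (2T), 28.2 (4U) and 9.77 (4T). As for BAK1, 4U stood above the rest, and the treated and untreated libraries did not overlap. BCL2L1 differed little at 2 h (log2 ratio -0.15) and was 2.89-fold lower in 4T than in 4U (log2 ratio -1.53), a ratio lower than that of all but 8.72% of genes. Gene-level FPKM do not separate the long anti-apoptotic from the short pro-apoptotic splice form of BCL2L1.

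MCL1, a guardian with a short-lived protein, lies at chr1:150533371-150552214 (minus strand). It was at 2.94 FPKM (2U), 0.938 (2T), 3.06 (4U) and 1.65 (4T). Both treated libraries lay below both untreated ones, and the untreated libraries differed by a log2 ratio of only 0.06. MCL1 was 3.14-fold lower at 2 h (log2 ratio -1.65) and 1.85-fold lower at 4 h (log2 ratio -0.89). The 2 h levels correspond to about 52 and 18 reads, a ratio of 0.325. Its exact 95% interval was 0.179 to 0.565, for counting error only and with reads taken as independent. MCL1 is the single member whose treated libraries were both lower than the untreated ones while those untreated libraries were nearly equal. The ratio of MCL1 to BCL2L1 was 0.212 (2U), 0.0748 (2T), 0.109 (4U) and 0.169 (4T), so BCL2L1 was the more abundant guardian mRNA throughout.

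BAD, a BH3-only protein that binds BCL-xL and is held inactive when phosphorylated by survival kinases, lies at chr11:64037302-64052176 (minus strand). Its level was 13.7 FPKM (2U), 69.7 (2T), 72.4 (4U) and 63.3 (4T). Thus 2U alone stood apart, and the other 3 libraries were within a narrow range. BAD was 5.10-fold higher in 2T than in 2U (log2 ratio 2.35). The exact 95% interval was 3.83 to 6.88 from about 57 and 309 reads, taken as independent. At 4 h the log2 ratio was -0.19, and the untreated 4U was 5.29-fold above 2U.

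BID, which caspase cleavage turns into an activator of the effectors, lies at chr22:18216904-18257536 (minus strand). It was at 16.8 FPKM (2U), 19.5 (2T), 29.9 (4U) and 12.8 (4T). The treated range enclosed the level of 2U, and 4U was highest. BID had a log2 ratio of 0.21 at 2 h and was 2.34-fold lower in 4T than in 4U (log2 ratio -1.22). Its 4U over 2U log2 ratio was 0.83.

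The other 3 BH3-only members were below 1 FPKM wherever they were listed above 0. BBC3 (PUMA), an inhibitor of all the guardians at chr19:47724079-47736023 (minus strand), was at 0.419 FPKM (2U), 0 (2T), 0.564 (4U) and 0.443 (4T). PMAIP1 (NOXA), a preferential partner of MCL1 at chr18:57567228-57571537 (plus strand), was at 0.324, 0, 0.806 and 0.532 FPKM in the same order. BCL2L11 (BIM), at chr2:111876955-111926021 (plus strand), was at 0.0493 FPKM in 2U and 0.279 in 4U and listed at 0 in both treated libraries. These levels correspond to about 8 reads or fewer in any library, and no ratio is given against a library listed at 0. At 4 h, BBC3 had a log2 ratio of -0.35 and PMAIP1 of -0.60, both short of 2-fold, and both values moved when set against genes of like GC content (0.90 and -1.68).

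A ratio could be formed for 6 members at 2 h, of which BAX and BAD were at least 2-fold higher in 2T (23.4% of 8448 genes were) and MCL1 at least 2-fold lower (18.4% of genes were). At 4 h, 8 members had a ratio, of which 0 were at least 2-fold higher (12.6% of 8651 genes were) and 3, BAK1, BCL2L1 and BID, were at least 2-fold lower (20.9% of genes were). Over genes at 1 FPKM or more in all 4 libraries the median log2 ratio at 4 h was -0.34, and the 4 h calls depended on the scaling. After centring on that median, BCL2L1 kept its call (log2 ratio -1.19) and BAK1 (-0.79) and BID (-0.89) did not, as with upper-quartile scaling. Relative to genes of like GC content, an alternative added after the data were seen, the members at least 2-fold lower at 4 h were again 3 but were MCL1, BID and PMAIP1, and BAX and BAD were at least 2-fold higher. BAX, BAD and MCL1 were then past 2-fold in the same direction at both times. The share of all genes past 2-fold relative to like GC is not given here, so these counts only describe the members. The median log2 ratio of the members was 0.09 at 2 h and -0.74 at 4 h, beside 0.07 and -0.18 over all genes above 0 in both libraries. With counts this small, the shares of members past 2-fold cannot be set apart from those of all genes. As single genes, BAX ranked at percentile 98.6 and BAD at 94.7 of all 2 h ratios, and MCL1 at 7.98.

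The untreated libraries also differed from each other. Of 9 members with a 4U over 2U ratio, 6 were at least 2-fold higher in 4U (34.5% of 9021 genes were) and 0 at least 2-fold lower (7.27% were), with a median log2 ratio of 1.25 beside 0.50 over all genes. The 6 were BAX, BAK1, BCL2L1, BAD, PMAIP1 and BCL2L11. Since 4U held no value between 0 and 0.2 FPKM, BCL2L11 (0.0493 FPKM in 2U) was past 2-fold at any 4U value above 0. The same floor, shared by 4T, can raise the shares of all genes higher at 4 h than at 2 h. Over genes at 1 FPKM or more in all 4 libraries the median log2 ratio of 4U over 2U was 0.08. Between the treated libraries, 0 of 6 members were 2-fold higher in 4T than in 2T (16.1% of 8034 genes were) or 2-fold lower (4.27% were), and their 4T over 2T log2 ratios ranged from -0.61 for BID to 0.82 for MCL1. Over the 4075 genes at 1 FPKM or more in all 4 libraries, 25.5% differed at least 2-fold between the untreated libraries and 4.98% between the treated ones. Of the same genes, 35.6% did so for 2T over 2U and 41.8% for 4T over 4U. Whether time in culture, handling or library preparation moved the untreated levels cannot be told apart, since each library is also a condition.

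**Figure D2:**
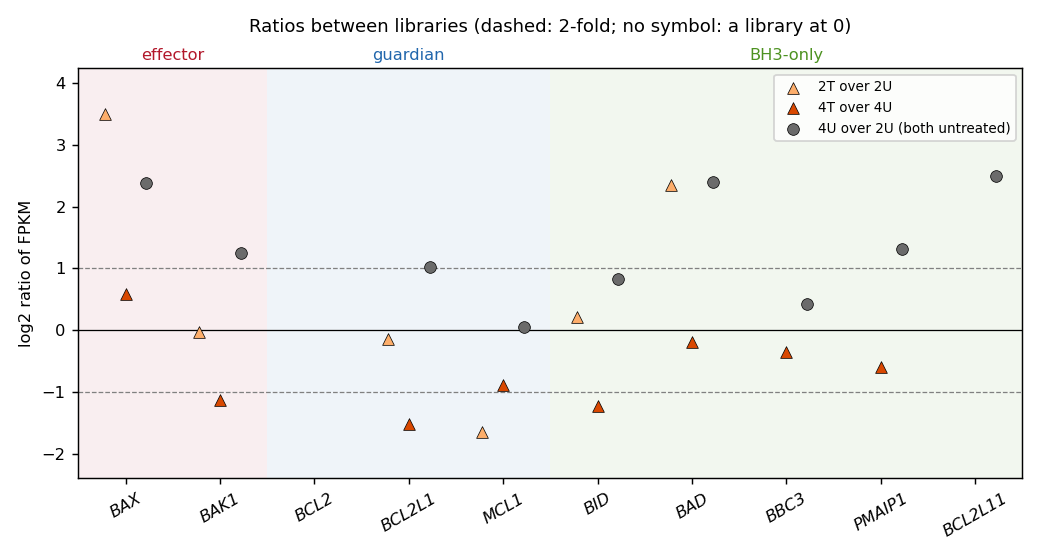
Log2 ratio of FPKM for each member, with triangles for treated over untreated at 2 h and 4 h and grey circles for 4U over 2U, and dashed lines at 2-fold. For BAX and BAD the 2 h ratio (3.51 and 2.35) has an untreated-to-untreated ratio of 2.38 and 2.40 beside it, whereas for MCL1 that ratio is 0.06.

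Summed by role, effectors were at 5.02 FPKM (2U), 14.7 (2T), 14.6 (4U) and 11.8 (4T). Guardians were at 16.8, 13.5, 31.2 and 11.4 FPKM, and BH3-only members at 31.3, 89.2, 103.9 and 77.1 FPKM, in the same order. The guardian sum was thus lowest in the treated libraries, and the sums of effectors and of BH3-only members were lowest in 2U. The log2 ratio of the sum was 1.55 for effectors, -0.32 for guardians and 1.51 for BH3-only members at 2 h, and -0.30, -1.45 and -0.43 at 4 h. Guardians therefore had the lowest log2 ratio of the 3 groups at both times, without a test of the difference.

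Ratios within a library do not depend on its scaling. There were 3.35 guardian FPKM per effector FPKM (2U), 0.918 (2T), 2.14 (4U) and 0.966 (4T), which gave log2 changes of -1.87 at 2 h and -1.15 at 4 h and of -0.65 from 2U to 4U. Both treated libraries were below 1 and both untreated ones above 2. With BAX left out, an alternative added after the data were seen, the ratio was 4.12, 3.36, 3.22 and 2.57, with log2 changes of -0.29 and -0.33, so that the separation rested on BAX. Per BH3-only FPKM there were 0.538 guardian FPKM (2U), 0.151 (2T), 0.301 (4U) and 0.148 (4T), and without BAD 0.955, 0.691, 0.991 and 0.829. For the pair BCL2L1 and BAX the ratio was 14.8 (2U), 1.18 (2T), 5.76 (4U) and 1.32 (4T). The listed FPKM of BCL2L1 thus exceeded that of BAX in every library.

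**Figure D3:**
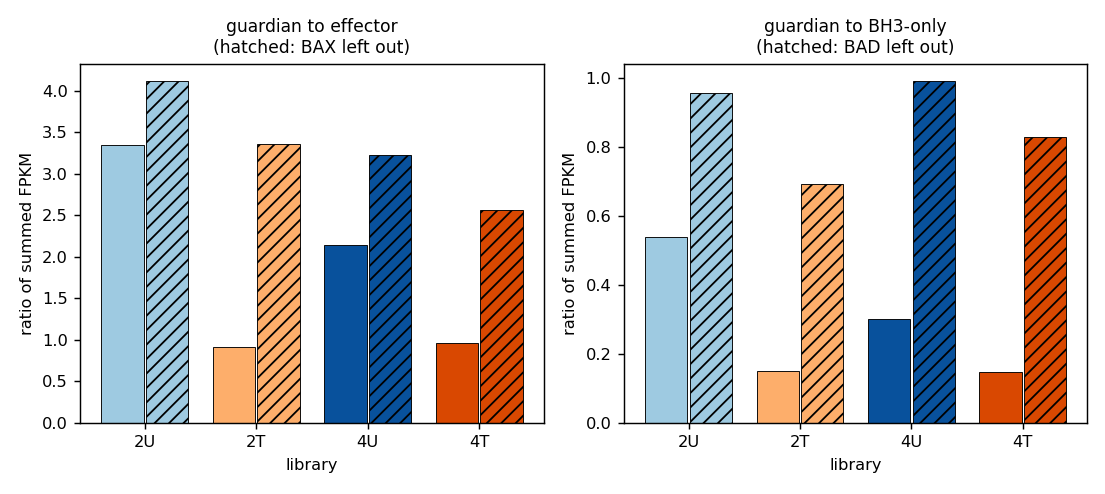
Guardian-to-effector ratio (left) and guardian-to-BH3-only ratio (right) of summed FPKM in each library, with hatched bars after BAX or BAD is left out. The plain bars of 2T and 4T are the lowest in both panels (0.918 and 0.966, 0.151 and 0.148), and the hatched bars differ far less between libraries.

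Ratios of all genes moved with the GC content of the transcript, both treated to untreated and between libraries of like treatment. This was read from 3541 genes at 1 FPKM or more in all 4 libraries and with a known GC content. Their median treated-to-untreated log2 ratio at 4 h was 1.08 below 42% GC and -1.07 at 57% GC or more. At 2 h it was 0.67 and -0.22. In the same GC classes the median was -0.11 and 0.42 for 4U over 2U, and 0.27 and -0.40 for 4T over 2T. The members span the range, from PMAIP1 (36.7% GC), MCL1 (45.1%) and BID (48.0%) to BCL2L1 (56.6%), BAK1 (58.6%), BAX (60.8%), BAD (65.8%) and BBC3 (69.7%). Relative to the median of genes within 2 percentage points of the same GC content, BAX was at 3.78 at 2 h and 1.66 at 4 h on the log2 scale, and BAD at 2.37 and 1.02. MCL1 was at -1.94 and -1.47, and BID at 0.20 and -1.42. BAK1 was at -0.16 and BCL2L1 at -0.72 at 4 h, both within 2-fold of genes of like GC. PMAIP1 was at -1.68 at 4 h, past 2-fold where its own log2 ratio was -0.60, and BBC3 was at 0.90, on the other side of 0 from its own -0.35. The GC medians came only from genes at 1 FPKM or more in all 4 libraries, a level that PMAIP1 and BBC3 reached in none. For BBC3 the median rested on 30 genes. MCL1, BID and PMAIP1 thus lay further below genes of like GC at 4 h than their own ratios, while BAK1 lay close to the median of such genes. The part of GC content in each member's ratio was not tested.

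**Figure D4:**
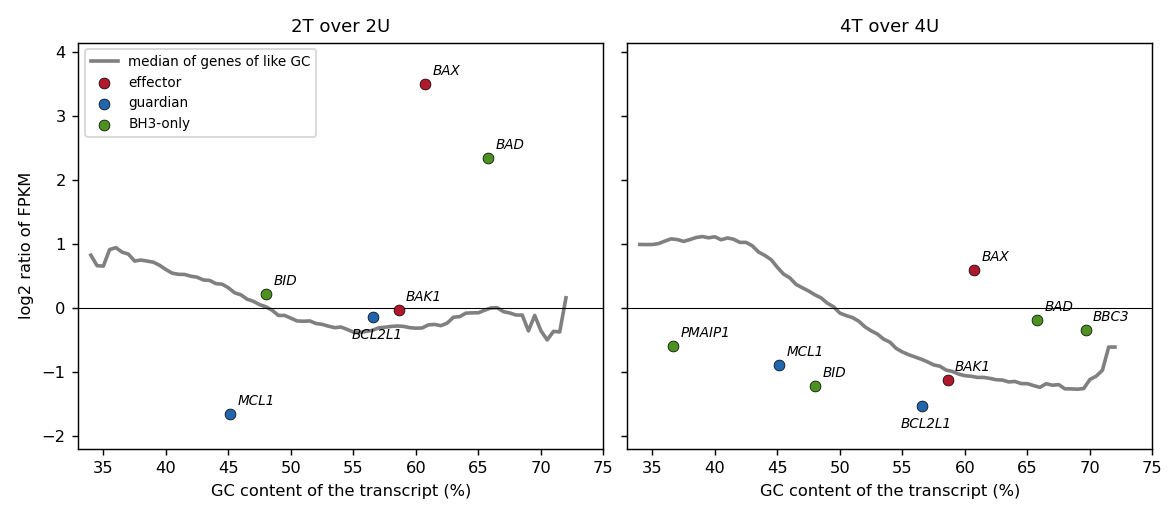
Log2 ratio of FPKM at 2 h (left) and 4 h (right) against transcript GC content in percent, with a point for each member that has a ratio, coloured by role, and a grey line for the median of genes of like GC. At 4 h the line falls from above 1 to below -1, BAK1 lies beside it, and BAX and BAD lie above it while MCL1, BID and PMAIP1 lie below.

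Further genes of the pathway were read from 6 lists named by function. Over all genes, 23.4% were at least 2-fold higher and 18.4% lower at 2 h, with a median log2 ratio of 0.07. At 4 h, 12.6% were higher and 20.9% lower, with a median of -0.18. The lists are small, and none was tested against these shares. Some of their genes, such as CYCS and DIABLO, and the members BAX, BCL2L1 and MCL1 were also singled out by the study from these libraries, so their direction is not independent evidence. Of 17 other family members, 5 were at 0 in all 4 libraries. At 2 h, 4 of the 10 with a ratio were at least 2-fold higher and 1 lower (median log2 ratio 0.31), and at 4 h 3 of 11 were higher and 1 lower (median 0.09). BOK, an effector-like relative of BAX, was at 14.7 FPKM (2U), 9.19 (2T), 24.4 (4U) and 6.76 (4T), the latter 3.61-fold below 4U, which is the order of libraries seen for BCL2L1. Relative to genes of like GC content the 4 h log2 ratio of BOK was -0.60, within 2-fold.

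Among 11 genes of the apoptosome and caspases, 4 were at 0 throughout. Of the 5 with a ratio, 1 was at least 2-fold higher and 2 lower at 2 h (median -0.52), and 1 higher and 0 lower at 4 h (median 0.35). CYCS, the cytochrome c that effector pores release, was at 0.625 FPKM (2U), 9.17 (2T), 4.51 (4U) and 12.9 (4T). Like BAX it was lowest in 2U and higher in both treated libraries, by a log2 ratio of 3.87 at 2 h and 1.52 at 4 h, the latter 0.42 relative to genes of like GC content.

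Of 10 mitochondrial factors and inhibitor of apoptosis (IAP) proteins, 2 were at 0 throughout, 2 of 6 were at least 2-fold higher and 2 lower at 2 h (median 0.10), and 2 of 7 higher and 2 lower at 4 h (median 0.77). DIABLO, a mitochondrial antagonist of IAP proteins, was at 4.20 FPKM (2U), 23.8 (2T), 4.71 (4U) and 18.3 (4T). BIRC5 (survivin), an IAP family protein of dividing cells, was at 85.2, 19.2, 82.0 and 23.9 FPKM. For both genes the untreated libraries were close to each other and the treated ones too, on opposite sides, with log2 ratios of 2.50 and 1.96 for DIABLO and -2.15 and -1.78 for BIRC5. ENDOG, a mitochondrial nuclease, had log2 ratios of -1.29 and -1.46, and BIRC2, a ubiquitin ligase of the IAP group, of 1.77 and 1.32. Relative to genes of like GC content the 4 h values were -0.20 for ENDOG and 0.27 for BIRC2, within 2-fold, whereas DIABLO (1.95) and BIRC5 (-1.61) remained past it.

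In the death receptor branch, 2 of 10 genes were at 0 throughout, 2 of 6 were at least 2-fold higher and 0 lower at 2 h (median 0.22), and 1 of 7 higher and 2 lower at 4 h (median 0.03). FADD, the adaptor of death receptors, had log2 ratios of 1.46 and -0.01, and TNFRSF1A, a receptor for tumour necrosis factor, of 0.56 and -1.65. Relative to genes of like GC content the 4 h value of TNFRSF1A was -0.77, within 2-fold. Of 7 mitochondrial partners, 1 of 6 was at least 2-fold higher and 0 lower at 2 h (median 0.83), and 1 of 7 higher and 1 lower at 4 h (median 0.41). VDAC3, a channel of the outer membrane, was at 73.4 FPKM (2U), 119.4 (2T), 25.9 (4U) and 166.6 (4T), so it was lowest in 4U, where BAK1 and BCL2L1 were highest. SLC25A5, an adenine nucleotide carrier, had log2 ratios of 0.96 and 0.41.

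Of 15 genes for the turnover and regulation of members, 2 of 12 were at least 2-fold higher and 4 lower at 2 h (median -0.09), and 2 of 13 higher and 4 lower at 4 h (median -0.48). BAG6, a chaperone for membrane proteins, was at 76.6 FPKM (2U), 10.5 (2T), 47.0 (4U) and 10.3 (4T). YWHAE, an adaptor of the family that holds phosphorylated BAD in the cytosol, was at 55.5, 117.1, 47.6 and 138.7 FPKM, and within 2-fold of genes of like GC content at both times (0.64 and 0.63). Both had their treated libraries on one side of the untreated ones, as BAX, BCL2L1 and MCL1 did, and how many of all genes did so was not counted.

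**Figure D5:**
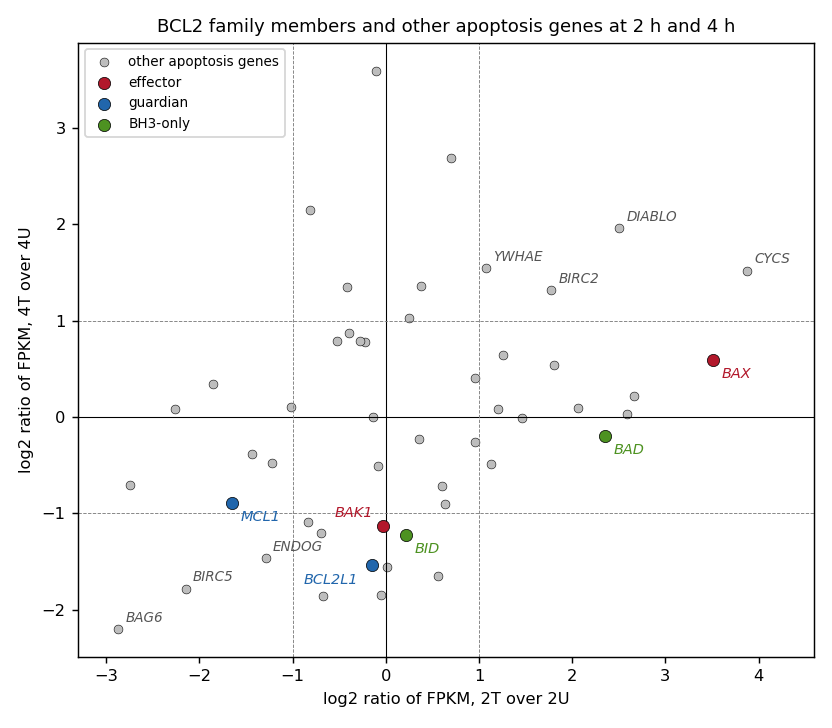
Log2 ratio of FPKM at 2 h (horizontal) against 4 h (vertical) for the 6 members with both ratios, coloured by role, and for the other apoptosis genes with both ratios (grey), with dashed lines at 2-fold. BAX and BAD lie to the right (3.51 and 2.35), and BAK1, BCL2L1 and BID lie near 0 on the horizontal axis and below -1 on the vertical one. Other genes past 2-fold in the same direction at both times are labelled, and for CYCS, ENDOG, BIRC2 and YWHAE this did not hold relative to genes of like GC.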

How the data were processed

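The mRNA of SK-HEP-1 cells was sequenced in 4 libraries, 1 per condition, from cDNA amplified by PCR before fragmentation. The authors deposited FPKM per gene symbol. The submitters' processing notes name TopHat and Cufflinks, whose versions are not given in the sources used here. No counts were given, and replicates were not pooled. The small RNA libraries were not used here.

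Ratios are log2 of the FPKM ratio with no pseudocount, for genes above 0 in both libraries, and called means at least 2-fold. The members, gene lists and alternatives were chosen with earlier results of these data known. All 10 members are named. Of each list, every gene past 2-fold in the same direction at both times is named, and otherwise the gene with the largest absolute log2 ratio at each time among genes with at least 1 FPKM in both libraries of that time. The examples listed at 0 were added, and some genes are not reported here.

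Symbols were matched to GENCODE genes on GRCh37, and the canonical transcript gave the length, GC content and coding sequence. The reads behind a value were estimated from the FPKM of 1 read on 1 kb (2U 0.223, 2T 0.209, 4U 0.188 and 4T 0.185), taken from the spacing of low values. The 95% Clopper-Pearson intervals cover counting error only and take each estimated read as independent. Reads copied by PCR are no independent molecules, so the intervals may be too narrow even for counting error. Python 3.11.15, numpy 2.4.6, scipy 1.17.1, Biopython 1.88 and matplotlib 3.10.9 were used, and the steps were tested on simulated data. Alternatives were the pseudocount, a filter at 1 FPKM, 3 scalings, a fold of 1.5 and the mean of 2U and 4U as untreated.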

Additional observations from a re-analysis of the deposited data

Results flagged for a closer look

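For 2 members and 2 groups the treated-to-untreated log2 ratio had opposite signs at 2 h and 4 h in the deposited values, which is what marks them here. The log2 ratio at 2 h minus that at 4 h was 1.44 for BID (0.21 and -1.22) and 2.54 for BAD (2.35 and -0.19). It was 1.85 for the summed effectors (1.55 and -0.30) and 1.94 for the summed BH3-only members (1.51 and -0.43). With 1 library per condition these differences were not tested. The value of 4U over 2U was 0.83 for BID, 2.40 for BAD, 1.54 for the effector sum and 1.73 for the BH3-only sum, and the rest of each difference, 4T over 2T with its sign turned, was smaller (4T over 2T was -0.61, -0.14, -0.31 and -0.21 in the same order). The signs were not stable. BAD at 4 h was at 0.15 after centring on the median ratio, 0.05 with upper-quartile scaling, 0.56 with the mean of 2U and 4U as untreated and 1.02 relative to genes of like GC, and BID at 2 h was at -0.26 with the mean untreated level. An opposite effect of AcFBE at the 2 times is therefore not shown.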

How the results depend on the processing

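No member past 2-fold changed direction under any alternative, and the guardian-to-effector ratio was lower in the treated library under each. At 2 h, the members at least 2-fold lower numbered 3 with a pseudocount of 0.1 FPKM, which adds BBC3 and PMAIP1, and 0 with a minimum of 1 FPKM, which drops MCL1 (0.938 in 2T). Those at least 2-fold higher numbered 1 with that minimum, which drops BAX (0.937 in 2U), and 1 with the mean of 2U and 4U as untreated, where BAD was at 0.70. That mean moved the 2 h median to -0.50. The guardian-to-effector log2 change at 2 h was -0.12 with the minimum of 1 FPKM, -0.29 without BAX and -3.20 without BCL2L1, and at 4 h -0.33 without BAX. At 4 h, the members at least 2-fold lower numbered 1 after centring on the median ratio, 1 after upper-quartile scaling, 1 with the mean untreated level and 5 at a fold of 1.5. Those higher numbered 1 with the mean untreated level, 1 at a fold of 1.5 and 2 after GC centring (BAX and BAD), which kept 3 members lower but with MCL1 and PMAIP1 in place of BAK1 and BCL2L1. Leaving out BAX or BCL2L1 and GC centring were added after the data were seen. For no alternative is the share of all genes past the fold given, so the counts above only describe the members. No paired analysis was possible because each mRNA condition has 1 library, and leaving out a library removes its condition. Depth limits BAX in 2U (about 3 reads), BBC3, PMAIP1 and BCL2L11.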
